A study of Mus musculus with 12 samples.

Results

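The 9 genes described here, H2-Aa, H2-Ab1, H2-Eb1, H2-DMa, H2-DMb1, Cd74, Ciita, Ctss and Ifi30, build and load the MHC class II molecules with which an antigen-presenting cell shows peptides to CD4+ T cells. They were found by matching the Ensembl gene IDs of the count files to mouse gene symbols, which placed all 9 among the 43626 gene IDs in the files. All 9 were also among the 14308 genes with enough reads to be tested. Expression was measured by RNA-Seq in mouse bone marrow–derived macrophages (BMDMs), primary macrophages grown from marrow, whose culture details and mouse strain were not given in the sources used here. Quiescent cells in PBS were compared with cells incubated for 6 hours with 100 µg/mL 3′sialyllactose (3′SL, the human milk oligosaccharide that the labels call HMO), with 10 ng/mL lipopolysaccharide (LPS, a bacterial activator of TLR4), or with both. Each of the 4 conditions had 3 libraries, and each library held between 20411741 and 26851890 reads on genes. The doses and the time are those of the study's methods, while the treatment protocol in the labels describes injections of mice. The labels name no allele, and the labels do not say whether the libraries of a condition came from separate mice or cultures, so p-values measure the spread between these libraries.

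A class II molecule pairs an α and a β chain, which H2-Aa and H2-Ab1 encode for I-A and H2-Eb1, as the β chain, for I-E. The invariant chain (Cd74) holds the groove closed on the way to the endosome, where cathepsin S (Ctss) trims it and the thiol reductase GILT (Ifi30) opens disulfide bonds of antigens. H2-DM, a dimer of H2-DMa with H2-DMb1 or H2-DMb2, then exchanges the last invariant chain fragment for peptide. CIITA (Ciita) is the coactivator that switches on the chain genes, Cd74 and H2-DM through the X and Y boxes of their promoters, which are bound by the RFX complex and NF-Y. Macrophages are known to carry little class II until interferon γ induces CIITA.

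The promoter stretches below are shown because these boxes are the known point of contact between CIITA and its target genes. They come from the RefSeq promoter table (build GRCm38.p6), which held entries for H2-Aa, H2-Eb1, H2-DMa, H2-DMb1, Ctss and Ifi30 among the members and none for H2-Ab1, Ciita or the invariant chain gene. Each runs 5′ to 3′ on the gene's own strand, with bases counted back from the transcription start, and capitals mark the motifs that were searched. H2-Aa is shown at chr17:34287824-34287943 on the minus strand, H2-Eb1 at chr17:34305747-34305866 on the plus strand, H2-DMb1 at chr17:34153090-34153113 on the plus strand and Ctss at chr3:95526686-95526785 on the plus strand.
H2-Aa: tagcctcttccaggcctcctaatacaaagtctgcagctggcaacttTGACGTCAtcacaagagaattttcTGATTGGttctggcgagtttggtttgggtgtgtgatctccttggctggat
H2-Eb1: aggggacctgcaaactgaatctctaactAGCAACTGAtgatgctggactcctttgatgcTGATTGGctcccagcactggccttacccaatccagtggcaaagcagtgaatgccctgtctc
H2-DMb1: ttacctAGTAACTGAtgatgctag
Ctss: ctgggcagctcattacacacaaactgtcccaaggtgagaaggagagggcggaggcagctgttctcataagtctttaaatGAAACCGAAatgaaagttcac
Both strands of the 250 bases before each start were searched for the X box letters AGNAACNGA, the Y box letters TGATTGG, the CRE letters TGACGTCA (a palindrome, matched on both strands at once) and the interferon regulatory factor letters GAAANNGAA. The letters were chosen with these sequences in view. In H2-Eb1 the X box letters spanned bases -92 to -84 and the Y box letters bases -61 to -55. In H2-DMb1 they stood at almost the same places, at -95 to -87 and -63 to -57, and the stretch printed holds the first of these. H2-Aa held the CRE letters at -74 to -67 and the Y box letters at -50 to -44. The Ctss promoter held the interferon regulatory factor letters at -21 to -13 and neither box. H2-Aa held no X box letters, and none of the letters were found in the promoters of H2-DMa or Ifi30. Of the 32851 promoters in the table, 4.42% held the X box letters, 7.23% the Y box letters, 1.55% the CRE letters, 7.13% the interferon regulatory factor letters, and 85 promoters (0.259%) held the X and Y letters together.

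Running numbers in the sample titles came in 3 consecutive blocks of 4, and a block contained each condition once. After the mean of each condition was removed, libraries of the same set deviated together (mean correlation over 13474 genes 0.68, lowest 0.53), whereas libraries of different sets did not (mean -0.37, highest -0.09). Clustering of these same deviations gave the same blocks, and removing a mean of 3 libraries pushes correlations between sets below 0. The correlations are therefore a description and no separate test of the sets. The labels do not say what a set was, so such a block of 4 is called a library set, numbered 1 to 3, and every comparison is given over all libraries and with the set as a block. The 6 LPS response genes chosen as a check (Il1b, Il6, Tnf, Nos2, Il12b and Cxcl10) all passed the test upward in LPS over PBS. Macrophage markers were abundant in all libraries, with 8 genes summing to between 17640 and 30040 CPM, the read counts scaled to a common library size with TMM factors. Most of this sum was Lyz2, with means of 13600, 14700 and 14700 CPM in sets 1, 2 and 3. Mertk was the lowest, at 168, 191 and 190 CPM.

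The 3 class II chain genes and Cd74 differed far more between library sets than between treatments. The library set also took more of the variation than LPS for Ifi30, Ctss and H2-DMa. LPS raised Ciita from a few reads to between 13 and 19 reads per library, and this was the only member called over all libraries. Within the sets, LPS also raised H2-Aa, H2-Ab1, H2-Eb1, Cd74 and Ctss, by between 1.41- and 5.29-fold in single sets on the TMM scale, and these passed the test when the set was a block, although with the block and total counts only H2-Ab1 and Ciita were still called higher and Ctss turned. H2-DMa, H2-DMb1 and Ifi30 did not pass it together with the fold minimum on the TMM scale. With the block and total counts, H2-DMb1 and Ifi30 were called lower. No member passed the test for 3′SL, given alone or beside LPS, in either fit over all 12 libraries.

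**Figure D1:**
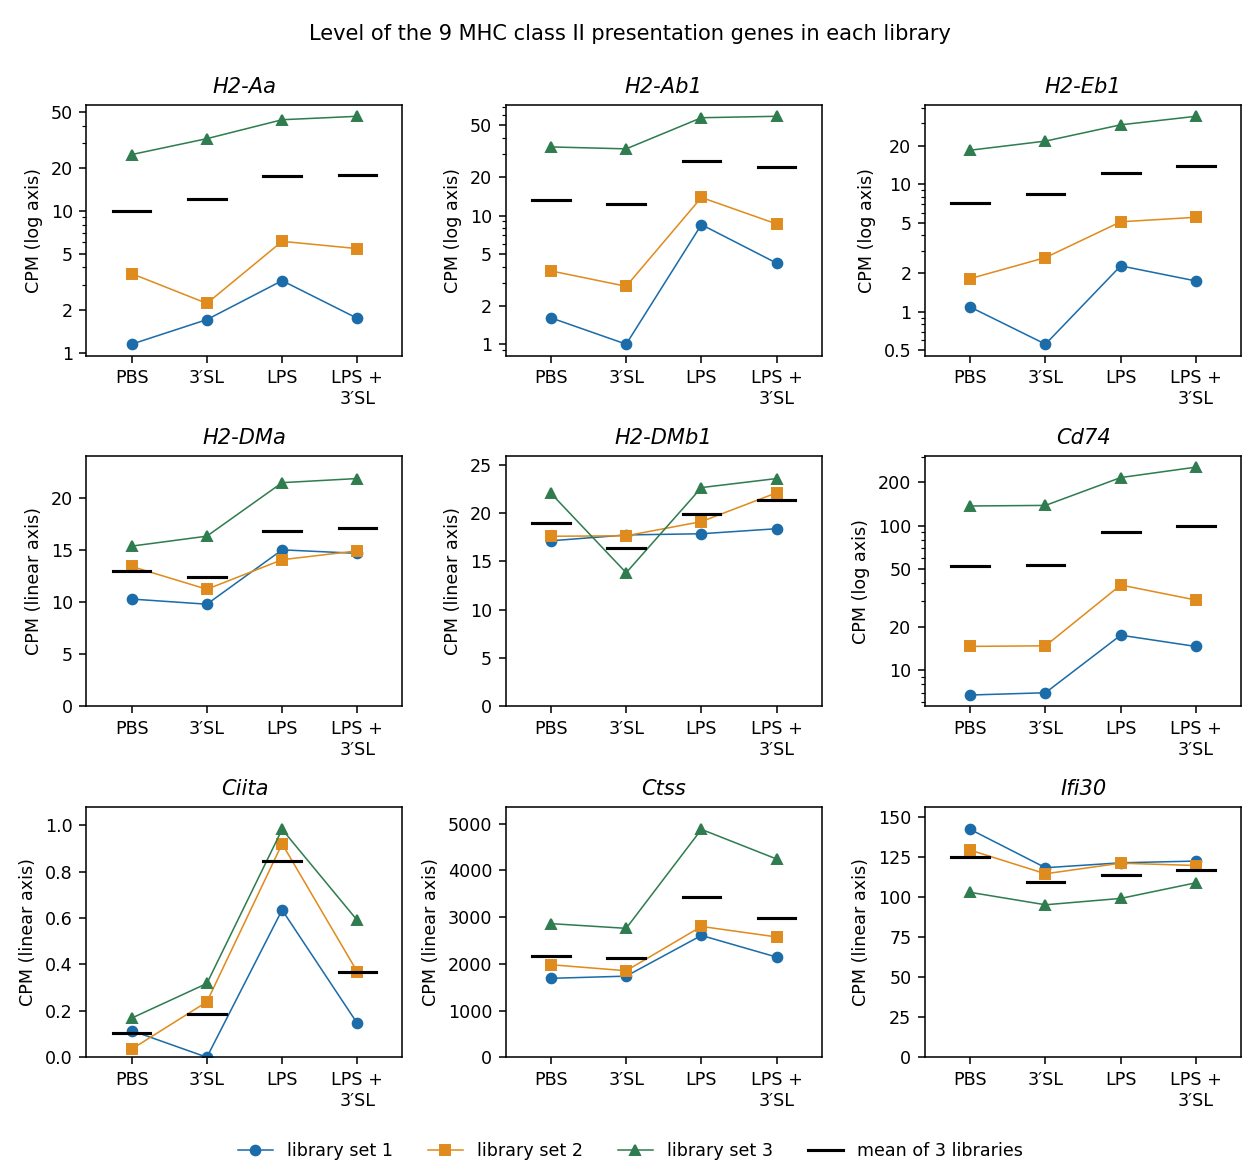
Level of each member in CPM (TMM scaled) in the 12 libraries by condition, with library sets 1, 2 and 3 as circles, squares and triangles, thin lines joining libraries of one set and thick bars at the mean of 3 libraries. H2-Aa, H2-Ab1, H2-Eb1 and Cd74 are on log axes, where set 3 lies above both other sets in every condition, and the other members are on linear axes from 0.

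H2-Aa lies on chromosome 17 at 34282744-34287823 (GRCm38, minus strand), H2-Ab1 at 34257689-34269419 and H2-Eb1 at 34305867-34316674, both on the plus strand. H2-Aa was at 1.15, 3.61 and 25 CPM in the PBS libraries of sets 1, 2 and 3, at 1.71, 2.23 and 32.4 CPM with 3′SL, at 3.22, 6.10 and 44.0 CPM with LPS, and at 1.75, 5.42 and 46.5 CPM with LPS + 3′SL. H2-Ab1 was at 1.61, 3.72 and 34.0 CPM in PBS, at 1.0, 2.82 and 32.9 CPM with 3′SL, at 8.50, 13.8 and 57.3 CPM with LPS, and at 4.27, 8.60 and 58.8 CPM with LPS + 3′SL. H2-Eb1 was at 1.09, 1.82 and 18.5 CPM in PBS, at 0.558, 2.67 and 21.8 CPM with 3′SL, at 2.30, 5.09 and 29.3 CPM with LPS, and at 1.75, 5.52 and 34.2 CPM with LPS + 3′SL. The lowest library of set 3 was thus above the highest library of sets 1 and 2 for each of these 3 genes, whatever the treatment, and the conditions overlapped.

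Cd74, the invariant chain gene, followed the same order at a higher level. It was at 6.75, 14.6 and 137 CPM in PBS, at 7.0, 14.8 and 138 CPM with 3′SL, at 17.5, 38.8 and 215 CPM with LPS, and at 14.6, 30.6 and 253 CPM with LPS + 3′SL. Set 3 exceeded set 1 by between 12.3- and 20.2-fold and set 2 by between 5.53- and 9.34-fold in the matching conditions. Set 2 in turn exceeded set 1 by between 2.09- and 2.22-fold in all 4.

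Among all 14308 genes tested, H2-Aa, H2-Eb1, Cd74 and H2-Ab1 had, in this order, the 4 largest excesses of set 3 over the mean of sets 1 and 2, with mean log2 differences of 3.68, 3.54, 3.53 and 3.40. A difference of more than 4-fold in either direction was found for 114 genes (0.797%). The other members were far from this, at 0.85 for Ciita, 0.74 for Ctss, 0.53 for H2-DMa, 0.13 for H2-DMb1 and -0.28 for Ifi30. The library set took 93.2% of the variation of log2 CPM of H2-Aa over the 12 libraries, 90.7% for Cd74, 89.9% for H2-Eb1 and 78.1% for H2-Ab1. The median share over all tested genes was 15.2%. LPS took 4.62%, 8.66%, 7.97% and 17.3% of the variation of these 4 genes, and 3′SL at most 1.42%. The set also took 73.4% for Ifi30, 60.2% for Ctss and 56.4% for H2-DMa, beside 0.132%, 35.6% and 36.7% for LPS. For Ciita (18.8%) and H2-DMb1 (11.8%) the set took less than LPS (52.2% and 29.2%). These are descriptions of 3 sets, and whether a set was a mouse, a culture or a preparation cannot be told apart.

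**Figure D2:**
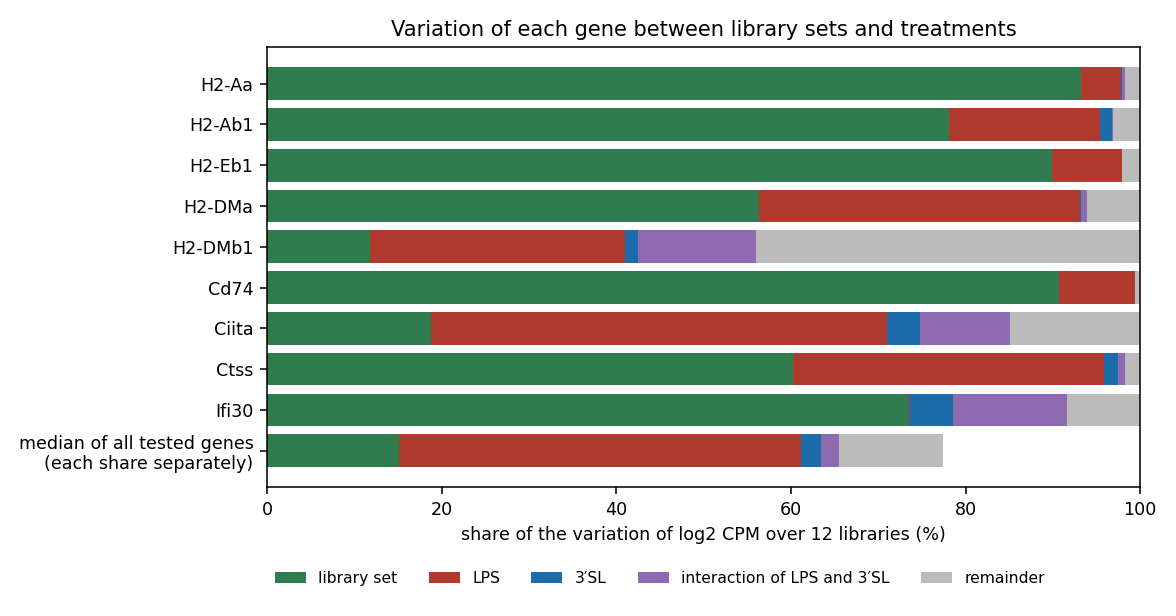
Share in percent of the variation of log2 CPM over 12 libraries that lay between library sets, with LPS, with 3′SL, in the interaction of LPS and 3′SL and in the remainder, for each member and, in the lowest bar, as the median of each share over all tested genes, which need not add up to 100. The set takes 93.2% for H2-Aa and 90.7% for Cd74, and LPS takes the largest share for Ciita.

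Class II genes are also expressed by dendritic cells and B cells, so their markers were read in the same libraries. Of 12 dendritic cell genes, Flt3, Dpp4, Cd209a and Siglech had at most 10 reads in every library, and the summed level of the list was 52.9 to 124 CPM in set 1, 49.7 to 153 CPM in set 2 and 90.0 to 248 CPM in set 3. The same sum was 52.9 to 90.0 CPM in PBS and 124 to 225 CPM with LPS. Most of it was Itgax, an integrin that macrophages also carry, with mean levels of 64.6, 68.0 and 124 CPM in sets 1, 2 and 3, and the chemokine gene Ccl22, at 19.3, 27 and 32.6 CPM. All of the list except Zbtb46 and Ccl17 had the highest mean in set 3, such as Xcr1 (3.07, 2.68 and 7.33 CPM) and Ccr7 (0.0487, 0.282 and 0.757 CPM). Of the 8 tested, 4 were called higher with LPS over all libraries (18.3% of all genes). With the block 6 were called higher (20.5% of all genes) and 1 lower. Of 8 B cell genes, Cd79a and Pax5 had at most 10 reads in every library, and the list summed to 29.1 to 41.4, 31.2 to 40.8 and 34.9 to 89.7 CPM in the 3 sets. Of 6 T cell genes, 5 had at most 10 reads everywhere. Neutrophil genes summed to 96.3 to 161, 191 to 319 and 196 to 729 CPM, and stromal genes to 525 to 611, 22.2 to 40.9 and 53.7 to 96.2 CPM. The part of other cells in the class II levels was not tested, and in bulk RNA more cells of a type cannot be told apart from more RNA per cell.

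The 5 genes outside the list whose log2 CPM followed the mean of H2-Aa, H2-Ab1, H2-Eb1 and Cd74 most closely over the 12 libraries were Pitpna, a phosphatidylinositol transfer protein (Pearson r = 0.97), Srrt (r = 0.97), Adgre4, an adhesion receptor of the F4/80 family (r = 0.97), Pltp, the phospholipid transfer protein (r = 0.96), and Tyrobp, the DAP12 adaptor (r = 0.96). Adgre4 ran from 2.24 to 8.59 CPM in set 1, from 7.09 to 14.6 CPM in set 2 and from 22.2 to 39.9 CPM in set 3. Pitpna moved far less, from 425 to 507, 463 to 524 and 550 to 632 CPM. The 12 points share libraries and sets, and the values are a description.

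Per kilobase of exon, the members spanned a wide range of levels. In PBS the mean ± SD over 3 libraries was 1602 ± 449 CPM per kb for Ctss, 127 ± 20.5 for Ifi30, 31.4 ± 43.3 for Cd74, 11.3 ± 1.61 for H2-DMb1, 5.11 ± 7.06 for H2-Ab1, 3.77 ± 0.741 for H2-DMa, 3.68 ± 5.07 for H2-Eb1, 2.61 ± 3.45 for H2-Aa and 0.0111 ± 0.00705 for Ciita. Ctss stood above Ifi30, and Ciita below H2-Aa, in every library of every condition. From Cd74 down to H2-Aa each neighbour in this order overlapped the next. With LPS the range of Cd74 also overlapped that of Ifi30.

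LPS against PBS asks whether the TLR4 agonist alters the class II genes within 6 hours. A gene was called when its adjusted p was under 0.05 and its change at least 1.5-fold. Over all libraries 1 of the 9 members was called, where 38.5% of all tested genes were (18.3% higher), and DESeq2 also called Ciita alone (log2 3.03, adjusted p = 0.00347, background 39.6%). With the library set as a block 6 members were called, where 44.6% of all genes were. All 6 were higher with LPS, a direction in which 20.5% of all genes were called. The members' median log2 fold change was 0.77 in the fit over all libraries and 0.96 with the block, beside -0.06 for all genes in both. In 8 of 9 members the LPS library was above the PBS library in each of the 3 sets, which held for 34.9% of all genes, and Ifi30 was below it in each, which held for 40.3%. The libraries of the 2 conditions did not overlap for 1 member, Ciita, where they did not for 58.4% of genes (27.3% with LPS above).

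These directions depend on the scaling. TMM factors were 1.21 to 1.30 in PBS and 0.70 to 0.88 with LPS, and scaling by total counts instead moved the median log2 change of all genes with LPS from -0.06 to -0.71. Of all calls, 2613 were higher and 2889 lower with TMM, and 1535 higher and 6657 lower with total counts. On that scale, with the set as a block, H2-Ab1 (log2 0.97) and Ciita (2.28) were called higher, and H2-DMb1 (-0.59) and Ifi30 (-0.78) lower. H2-Aa (0.29), H2-Eb1 (0.33) and Cd74 (0.47) kept their direction without a call, and Ctss (-0.02) and H2-DMa (-0.29) turned. In set 3 the LPS and PBS libraries held 23286990 and 24486915 reads on genes. Of these, H2-Ab1 had 934 and 1009, H2-Eb1 477 and 549, Cd74 3496 and 4048 and H2-Aa 717 and 741. As a share of the reads on genes, H2-Ab1, H2-Eb1 and Cd74 were thus lower with LPS in set 3, and higher in sets 1 and 2. H2-Aa was higher in all 3 sets.

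All 3 chain genes were higher with LPS in each set on the TMM scale, and H2-Ab1 by least in set 3, where it stood highest before treatment. H2-Ab1 was 5.29-fold higher in set 1 (log2 2.40, 95% counting interval 1.96 to 2.86), 3.71-fold in set 2 (1.57 to 2.23) and 1.69-fold in set 3 (0.62 to 0.88). The interval of set 3 lay below both others, while counting intervals cover the sampling of reads only and no test of the difference between sets was run. H2-Aa was 2.81-, 1.69- and 1.76-fold higher in the 3 sets and H2-Eb1 2.10-, 2.79- and 1.58-fold. With the set as a block, the log2 fold change was 1.63 ± 0.31 (SE) for H2-Ab1 (edgeR, adjusted p = 0.000695), 0.96 ± 0.22 for H2-Aa (adjusted p = 0.00298) and 1.01 ± 0.24 for H2-Eb1 (adjusted p = 0.00363). The call of H2-Eb1 was lost with the block without set 2 (adjusted p = 0.0614). Over all libraries the same genes had 1.01 ± 1.45, 0.84 ± 1.54 and 0.77 ± 1.5, with adjusted p between 0.611 and 0.718. Without set 3 and with no block, H2-Ab1 was the only member called (log2 2.07, adjusted p = 0.0233), where 38.5% of genes were.

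Cd74 was 2.59-, 2.66- and 1.57-fold higher with LPS in sets 1, 2 and 3. Its log2 fold change was 1.13 ± 0.14 with the block (adjusted p = 2.75e-05) and 0.78 ± 1.48 without it (adjusted p = 0.711). The Cd74 reads behind these ratios ranged from 235 to 4048 in the PBS libraries, so the counting interval was narrow in all 3 sets. The gene lies on chromosome 18 at 60803848-60812652 and shares 12 exon bases with the microRNA gene Mir5107.

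**Figure D3:**
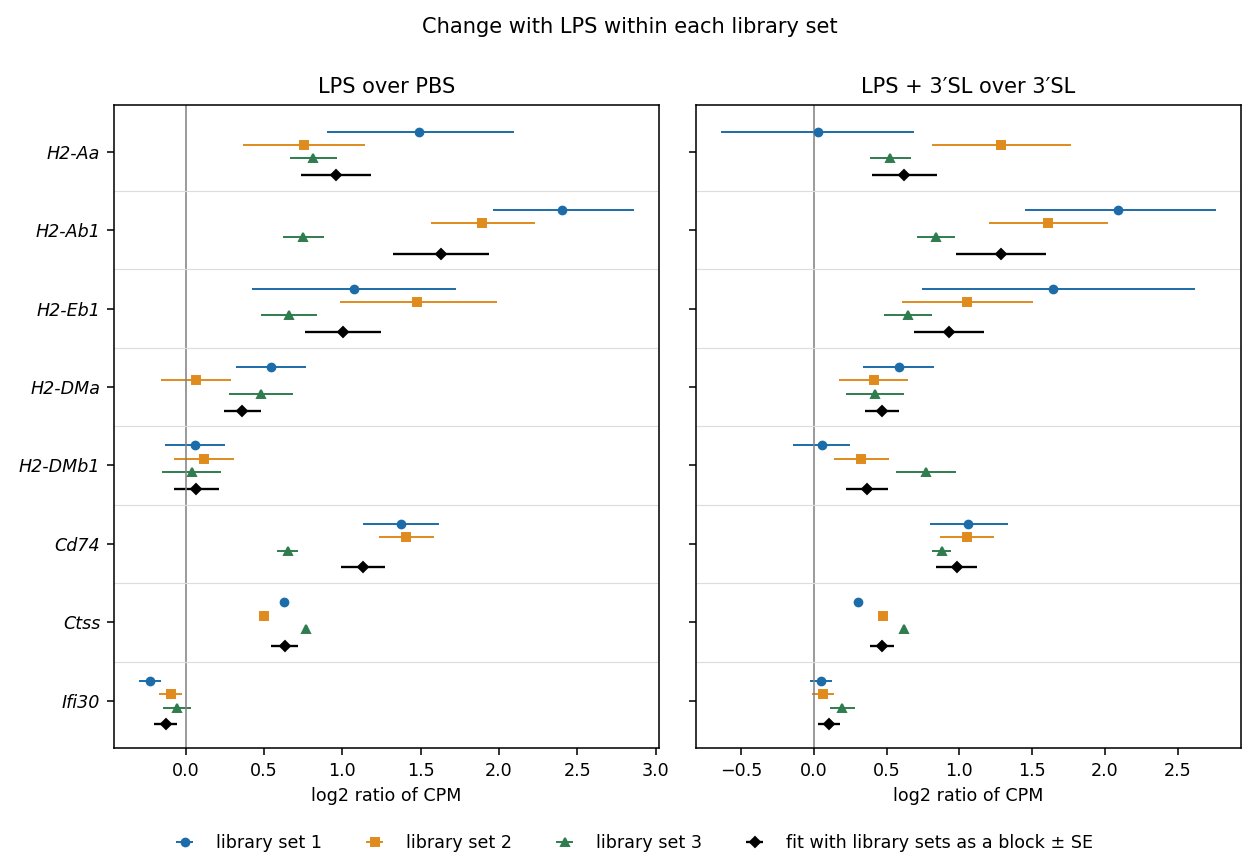
Log2 ratio of CPM with LPS over PBS (left) and with LPS + 3′SL over 3′SL (right) for 8 members, as 1 point per library set with its 95% counting interval and, as a diamond, the fit with library sets as a block ± SE. Ciita is left out because its ratios rest on at most 19 reads. On this TMM scale all points of the left panel except those of Ifi30 lie above 0, and set 3 lies below sets 1 and 2 for H2-Ab1, H2-Eb1, Cd74 and H2-DMb1. With total counts the fits of Ctss, H2-DMa and H2-DMb1 turn, and so do the set 3 ratios of H2-Ab1, H2-Eb1 and Cd74.

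Ciita, the coactivator, was barely transcribed in quiescent cells. It had 4, 1 and 5 reads in the PBS libraries of sets 1, 2 and 3, 0, 6 and 8 reads with 3′SL, 13, 19 and 16 reads with LPS, and 3, 8 and 11 reads with LPS + 3′SL. In CPM the means ± SD were 0.106 ± 0.0672 in PBS, 0.186 ± 0.166 with 3′SL, 0.846 ± 0.185 with LPS and 0.368 ± 0.222 with LPS + 3′SL (n = 3 each). Every LPS library was above every PBS library. In set 1 the ratio was 5.53, with a 95% counting interval on the log2 scale of 0.77 to 4.54, in set 2 it was 26.2, with an interval of 2.06 to 10.1 (19 reads against 1), and in set 3 it was 5.82, with an interval of 1.03 to 4.35. The log2 fold change was 2.92 ± 0.91 over all libraries (edgeR, adjusted p = 0.0215) and 2.94 ± 0.69 with the block (adjusted p = 0.00323), and without set 2 the block gave 2.51 (adjusted p = 0.0582). Without set 3 and with no block it was 3.26 (adjusted p = 0.0615). The call over all libraries was lost when either of the PBS libraries of sets 1 and 2 or the LPS libraries of sets 2 and 3 was left out (adjusted p 0.0518 to 0.0787), and a minimum of 10 reads in every library removed the gene.

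Ciita lies on chromosome 16 at 10480059-10528418, and 329 of its exon bases (3.45%) are covered on the other strand by Dexi. The libraries were made with a kit that keeps strand, but the strand setting of the counting was not given in the sources used here. The 5 genes closest to Ciita over the 12 libraries were Gm23722 (r = 0.95), Bcl2a1c (r = 0.95), Eif2s3y (r = 0.94), Cfap54 (r = 0.93) and Pigv (r = 0.93). Of these, Gm23722, Bcl2a1c and Cfap54 stayed under 2 CPM like Ciita itself, at up to 1.53, 1.47 and 1.13 CPM.

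The peptide exchange genes changed little on the TMM scale. H2-DMa was at 10.3, 13.4 and 15.3 CPM in the PBS libraries of sets 1, 2 and 3, at 9.79, 11.2 and 16.3 CPM with 3′SL, at 15.0, 14.0 and 21.4 CPM with LPS, and at 14.7, 14.9 and 21.8 CPM with LPS + 3′SL. With LPS it was 1.46-, 1.05- and 1.40-fold higher on the TMM scale, a direction that turned with total counts, and its log2 fold change of 0.36 ± 0.12 with the block had an adjusted p of 0.0190 but stayed under the fold minimum. H2-DMb1 was at 17.1, 17.6 and 22.1 CPM in PBS, at 17.8, 17.7 and 13.8 CPM with 3′SL, at 17.9, 19.1 and 22.7 CPM with LPS, and at 18.4, 22.1 and 23.6 CPM with LPS + 3′SL. Its PBS and LPS libraries overlapped almost fully (log2 0.07 ± 0.16 over all libraries, adjusted p = 0.763). With total counts H2-DMb1 was called lower with LPS (edgeR, log2 -0.59, adjusted p = 0.0096), where the median of all genes was -0.71. Its 3′SL library of set 3 was its lowest of all, at 348 reads.

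The DM genes carry limits of counting. H2-DMa lies on chromosome 17 at 34119541-34139101, and 10.4% of its exon length is shared with Brd2 on the other strand. H2-DMb1 (34153072-34160230) and its neighbour H2-DMb2 are close copies, and 22.7% of the 50-base words of H2-DMb1 also occur in H2-DMb2, so reads between them may have been dropped or split. H2-DMb2 took between 4.14% and 8.45% of the reads given to both genes, and its log2 change with LPS was -0.36 ± 0.31 (adjusted p = 0.381). It was called, as lower with LPS, only on the total count scale.

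The endosomal enzymes Ctss and Ifi30 had the highest mean levels per kb in every condition. Ctss (chromosome 3, 95526786-95556403) was at 1689, 1980 and 2859 CPM in the PBS libraries of sets 1, 2 and 3, at 1735, 1851 and 2758 CPM with 3′SL, at 2606, 2799 and 4876 CPM with LPS, and at 2143, 2573 and 4241 CPM with LPS + 3′SL. It was 1.54-, 1.41- and 1.71-fold higher with LPS on the TMM scale. The reads were 53370, 57794 and 79424 with LPS and 58808, 56429 and 84756 in PBS, from libraries of unlike depth. With total counts the log2 change was -0.03. The block fit on the TMM scale gave 0.63 ± 0.08 (adjusted p = 4.95e-05), and the fit over all libraries 0.66 ± 0.34 (adjusted p = 0.137). Without set 3 the block gave 0.57, just under the 1.5-fold minimum of 0.585.

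Ifi30 was at 142, 130 and 103 CPM in PBS, at 119, 115 and 95.3 CPM with 3′SL, at 122, 121 and 99.3 CPM with LPS, and at 123, 120 and 109 CPM with LPS + 3′SL. The libraries of all conditions overlapped, and set 3 was the lowest set in each, opposite to the chain genes. Its log2 change with LPS was -0.13 ± 0.14 over all libraries (adjusted p = 0.475) and -0.13 ± 0.07 with the block (adjusted p = 0.157). With total counts Ifi30 was called lower (edgeR, log2 -0.78, adjusted p = 0.0090), where the median of all genes was -0.71. The annotation used here (GENCODE M21) lists its locus, chromosome 8 at 70762774-70766663, as a processed transcript.

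LPS + 3′SL against 3′SL makes the LPS comparison in the other 6 libraries, all given 3′SL. They belong to the same 3 sets, so the comparison is no independent repeat. Over all libraries 0 of 9 members were called (background 29.2%), with the lowest unadjusted p at 0.0378 for H2-DMb1. DESeq2 called none either (background 30.9%), and 1 member, H2-DMb1, had libraries that did not overlap, as had 46.6% of genes. With the block 4 were, all higher, where 35.8% of genes were called and 16.4% were called higher. These were H2-Ab1 (log2 1.29 ± 0.31, adjusted p = 0.00470), Cd74 (0.98 ± 0.14, 0.000121), H2-Eb1 (0.93 ± 0.24, 0.00680) and H2-Aa (0.62 ± 0.22, 0.0367), which were also among the 6 called without 3′SL. With the block and total counts only H2-Ab1 was called (0.81, adjusted p = 0.0474), and with the block without set 2 only Cd74 (0.96, adjusted p = 0.00474). Ctss was at 0.47 ± 0.08 (adjusted p = 0.000679), under the fold minimum, and Ciita at 1.01 ± 0.72 (adjusted p = 0.267). On the TMM scale all 9 members were higher in each of the 3 sets, which held for 32% of genes. With total counts, where the median of all genes was -0.54, Ctss, H2-DMa, H2-DMb1 and Ifi30 turned in the fit over all libraries.

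3′SL against PBS asks what the oligosaccharide does in quiescent cells. No member was called in any of the fits, where 0.0% of genes were over all libraries, 2.84% with the block and 0.615% with DESeq2. The lowest unadjusted p was 0.196 (Ifi30) over all libraries, 0.195 with DESeq2 and 0.0265 (Ifi30) with the block. Over all genes 1439 had an unadjusted p under 0.05 in edgeR over all libraries. The libraries of the 2 conditions overlapped for every member, where they did not for 17.5% of genes. With 3′SL, 1 member (Cd74) was higher in every set and 2 (H2-Ab1 and Ifi30) lower, beside 25.8% and 25.5% of genes. Cd74 was nearly equal in all 3 sets (1.04-, 1.01- and 1.01-fold), with a log2 change of 0.03 ± 0.14 in the block fit. H2-Aa was 1.49-, 0.617- and 1.30-fold and H2-Eb1 0.512-, 1.46- and 1.18-fold, so the sets did not share a direction. H2-Ab1 was 0.625-, 0.760- and 0.966-fold (log2 -0.22 ± 0.31 with the block, adjusted p = 0.712). Ifi30 was lower in every set, at 0.832-, 0.886- and 0.925-fold (log2 -0.19 ± 0.07 with the block, adjusted p = 0.148).

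LPS + 3′SL against LPS asks whether 3′SL alters the activated state. Again 0 of 9 members were called over all libraries (0.0% of genes), with the block (1.45%) and with DESeq2 (0.790%). Over all genes 995 had an unadjusted p under 0.05, and the lowest p of a member was 0.183 (Ciita) over all libraries and 0.0349 (Ctss) with the block. H2-Ab1 was 0.503- and 0.623-fold in sets 1 and 2 and 1.03-fold in set 3, and its log2 change was -0.57 ± 0.30 with the block (adjusted p = 0.411). Without set 3 the block gave -0.83 ± 0.20 (adjusted p = 0.0271), the only setting in which a member was called in this comparison, where 2.58% of genes were. Cd74 showed the same split, at 0.836- and 0.787-fold in sets 1 and 2 and 1.18-fold in set 3.

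In every set 1 member (H2-DMb1) was higher and 2 were lower, beside 21.3% and 25.7% of genes. Ctss was lower with LPS + 3′SL than with LPS in every set, at 0.822-, 0.919- and 0.870-fold (log2 -0.20 ± 0.08 with the block, adjusted p = 0.281). Ciita was lower in every set as well, with 3, 8 and 11 reads beside 13, 19 and 16, and the libraries of the 2 conditions did not overlap, which held for 12.7% of all genes. Its log2 change was -1.31 ± 0.63 with the block (adjusted p = 0.355) and -1.20 ± 0.84 over all libraries (adjusted p = 0.959). The interaction of LPS and 3′SL was called for 0 members over all libraries, with DESeq2 and with the block, where 0.0%, 0.308% and 1.55% of genes were. The largest was Ciita at -1.95 ± 1.27 (unadjusted p = 0.152 in edgeR), and with the block Ifi30 had the lowest unadjusted p, 0.0471.

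**Figure D4:**
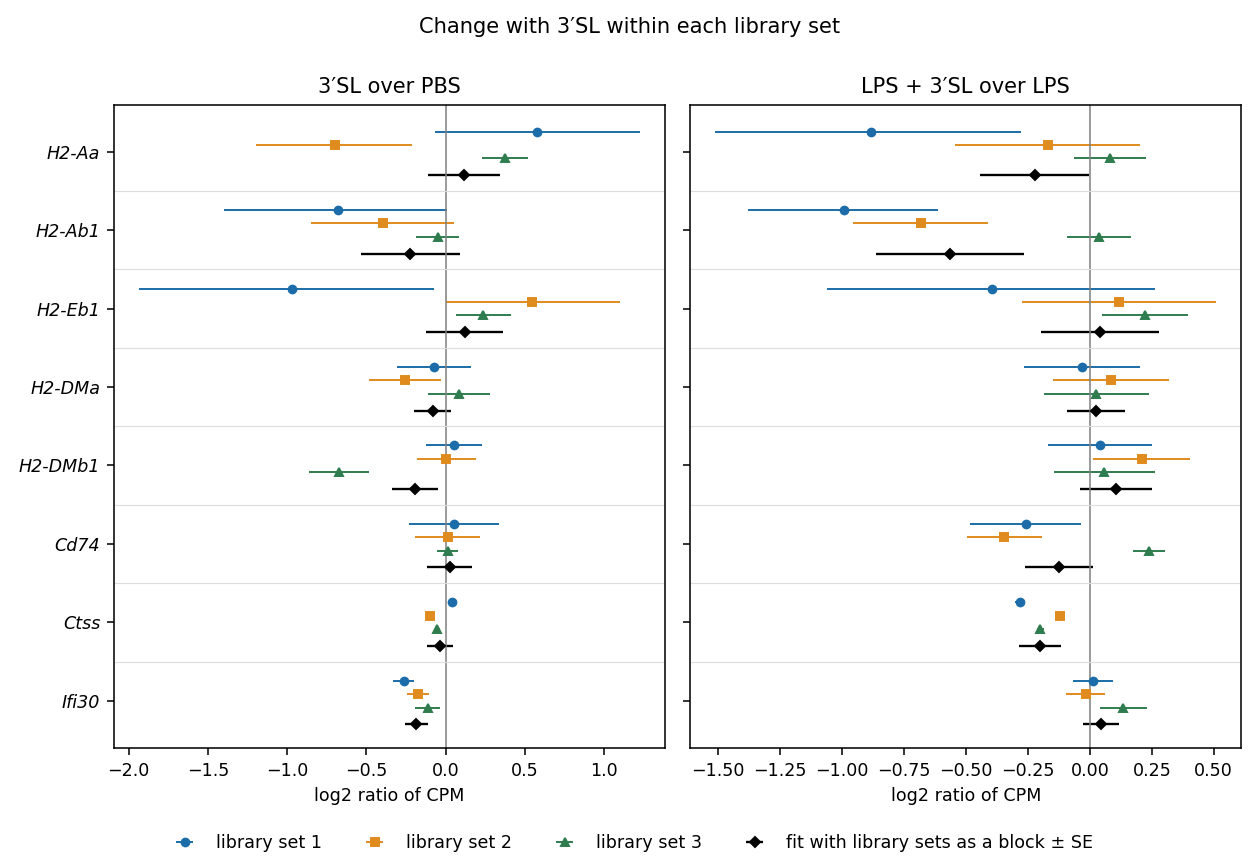
Log2 ratio of CPM with 3′SL over PBS (left) and with LPS + 3′SL over LPS (right) for 8 members, as 1 point per library set with its 95% counting interval and, as a diamond, the fit with library sets as a block ± SE. Points of the 3 sets lie on both sides of 0 for H2-Aa and H2-Eb1 in both panels, and in the right panel sets 1 and 2 lie below set 3 for H2-Aa, H2-Ab1, H2-Eb1, Cd74 and Ifi30.

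The ratio between chains differed among libraries as well. H2-Ab1 over H2-Aa in CPM had a median of 1.36 in PBS (1.03 to 1.40), 1.02 with 3′SL (0.587 to 1.27), 2.26 with LPS (1.30 to 2.64) and 1.59 with LPS + 3′SL (1.26 to 2.44). Ratios of levels within a library do not depend on the scaling. Cd74 over H2-Ab1 was 3.93 to 4.20 in the 3 PBS libraries and 2.06 to 3.74 in the 3 LPS libraries, which did not overlap. It was 4.19 to 6.96 with 3′SL and 3.42 to 4.31 with LPS + 3′SL, which did overlap. How often ratios of other genes part in this way was not counted. These ratios were not tested.

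Other class II genes were scarce. H2-Ob, a chain of the H2-DO inhibitor of H2-DM, had at most 15 reads in any library and was not called (log2 1.84 ± 1.01 with LPS, adjusted p = 0.162). H2-Oa, its partner, had at most 8 reads and was not tested, like H2-Eb2. H2-Ea, the α chain of I-E, had no match by name and was not analysed here. Of the 5 genes on this list, 2 were tested and 0 called in any comparison, with edgeR over all libraries or with the block.

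The regulators upstream of the class II promoters included several that LPS changed over all libraries. Of 14 tested, 6 rose and 1 fell over all libraries (median log2 0.86), where 38.5% of all genes were called and 18.3% were called higher. Irf1, which acts on the Ciita promoter downstream of interferon γ, had a log2 fold change of 3.45 ± 0.18 (adjusted p = 4.58e-07). Irf1 was at 37.4, 44.5 and 54.8 CPM in the PBS libraries of sets 1, 2 and 3 and at 448, 588 and 458 CPM with LPS, with no overlap. Irf2 was at 1.99 and Spi1, the macrophage factor PU.1, at 1.26. Prdm1, a known repressor of Ciita, rose too (2.03 ± 0.42, adjusted p = 0.00239).

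Within the RFX complex the subunits parted. Rfx5 rose (log2 1.48 ± 0.15, adjusted p = 2.41e-05), from 5.86, 5.02 and 5.67 CPM in PBS to 14.0, 14.7 and 17.6 CPM with LPS. Rfxap fell by 0.68 (adjusted p = 0.00825), and Rfxank was at -0.60 ± 0.32 (adjusted p = 0.153) over all libraries and called lower only with the block (-0.63, adjusted p = 0.0223). Irf8 (0.54 ± 0.28, adjusted p = 0.142) and Irf4 (1.22 ± 0.48, adjusted p = 0.0569) were not called over all libraries, nor were Creb1 and the NF-Y subunits Nfya, Nfyb and Nfyc, with log2 changes between -0.24 and 0.17. With 3′SL against PBS and with LPS + 3′SL against LPS, 0 of the 14 were called, with edgeR over all libraries or with the block.

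The receptor and kinases through which interferon γ induces CIITA also moved with LPS. All 4 genes were called, where 38.5% of all genes were. Jak2 at 4.29 ± 0.31 (adjusted p = 2.29e-06), Ifngr2 at 1.35 and Jak1 at 1.1 were higher and Ifngr1 at -0.87 lower (adjusted p = 0.000369). Jak2 was also the 1 gene of this list called for 3′SL against PBS with the block (0.59 ± 0.11, adjusted p = 0.0140, beside 0.62 ± 0.27 and 0.486 over all libraries). Its interaction of LPS and 3′SL was -0.90 with the block (adjusted p = 0.0166), and that of March1 was -1.0 (adjusted p = 0.0283). Neither interaction was called over all libraries or with DESeq2. With the block, 1.55% of all genes were called for the interaction and 2.84% for 3′SL against PBS.

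Of 8 endosomal genes, which encode proteases and the protease inhibitor cystatin C (Cst3), 2 rose with LPS over all libraries. The share of all genes called higher was 18.3%. Sppl2a, the intramembrane protease that clears the invariant chain stub, was at 2.27 ± 0.18 (adjusted p = 4.56e-06) and Ctsz at 0.96 ± 0.10 (adjusted p = 2.95e-05). Ctsh was called only with the block (0.82, adjusted p = 1.1e-06), and Ctsl, which trims the invariant chain in thymic epithelium, was at -0.01 ± 0.18 (adjusted p = 0.981).

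Of 3 genes that set the surface life of class II, 2 were raised by LPS over all libraries, where 18.3% of all genes were. March1, the ubiquitin ligase that sends class II to degradation, was at 39.2, 50.4 and 55.3 CPM in PBS and at 369, 423 and 805 CPM with LPS (log2 3.46 ± 0.42, adjusted p = 6.8e-05). Cd83, which opposes March1, had 2.20 ± 0.33 (adjusted p = 0.000303), while March8 was not called. March1 was higher with 3′SL than in PBS in each set, at 64.8, 74.7 and 129 CPM. It was called with the block (0.82 ± 0.14, adjusted p = 0.0103), where 2.84% of all genes were. Over all libraries it was not called (0.89 ± 0.39, adjusted p = 0.486). In LPS + 3′SL against 3′SL over all libraries, 6 of 14 regulators, 3 of 4 interferon γ receptor and JAK genes, 2 of 8 endosomal genes and 2 of 3 turnover genes were higher, and 1 receptor gene was lower. Of all 14308 genes tested, 2051 were called higher there and 2120 lower, 29.2% in either direction.

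MHC class I presentation served as a comparison in the same libraries. Of 13 class I genes, 10 rose with LPS over all libraries (median log2 2.66), where 1 of the 9 class II members did (median 0.77). Of all genes 18.3% were called higher there (median -0.06), so the class II count was near this share. With the block the counts were 11 of 13 (median 2.65) and 6 of 9 (median 0.96), beside 20.5% of all genes (median -0.06). Nlrc5, the class I counterpart of CIITA, was at 19.2, 25 and 31.3 CPM in PBS and at 456, 571 and 964 CPM with LPS (log2 4.72 ± 0.51, adjusted p = 2.87e-05), while Ciita stayed under 1 CPM. The peptide transporter genes Tap1 and Tap2 had log2 fold changes of 4.4 and 3.5 and the immunoproteasome gene Psmb9 of 3.25. No class I gene was called for 3′SL, with or without LPS, by edgeR over all libraries or with the block. The difference between the 2 lists is a description by counts and medians, since their genes share libraries and were chosen with earlier results in view.

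**Figure D5:**
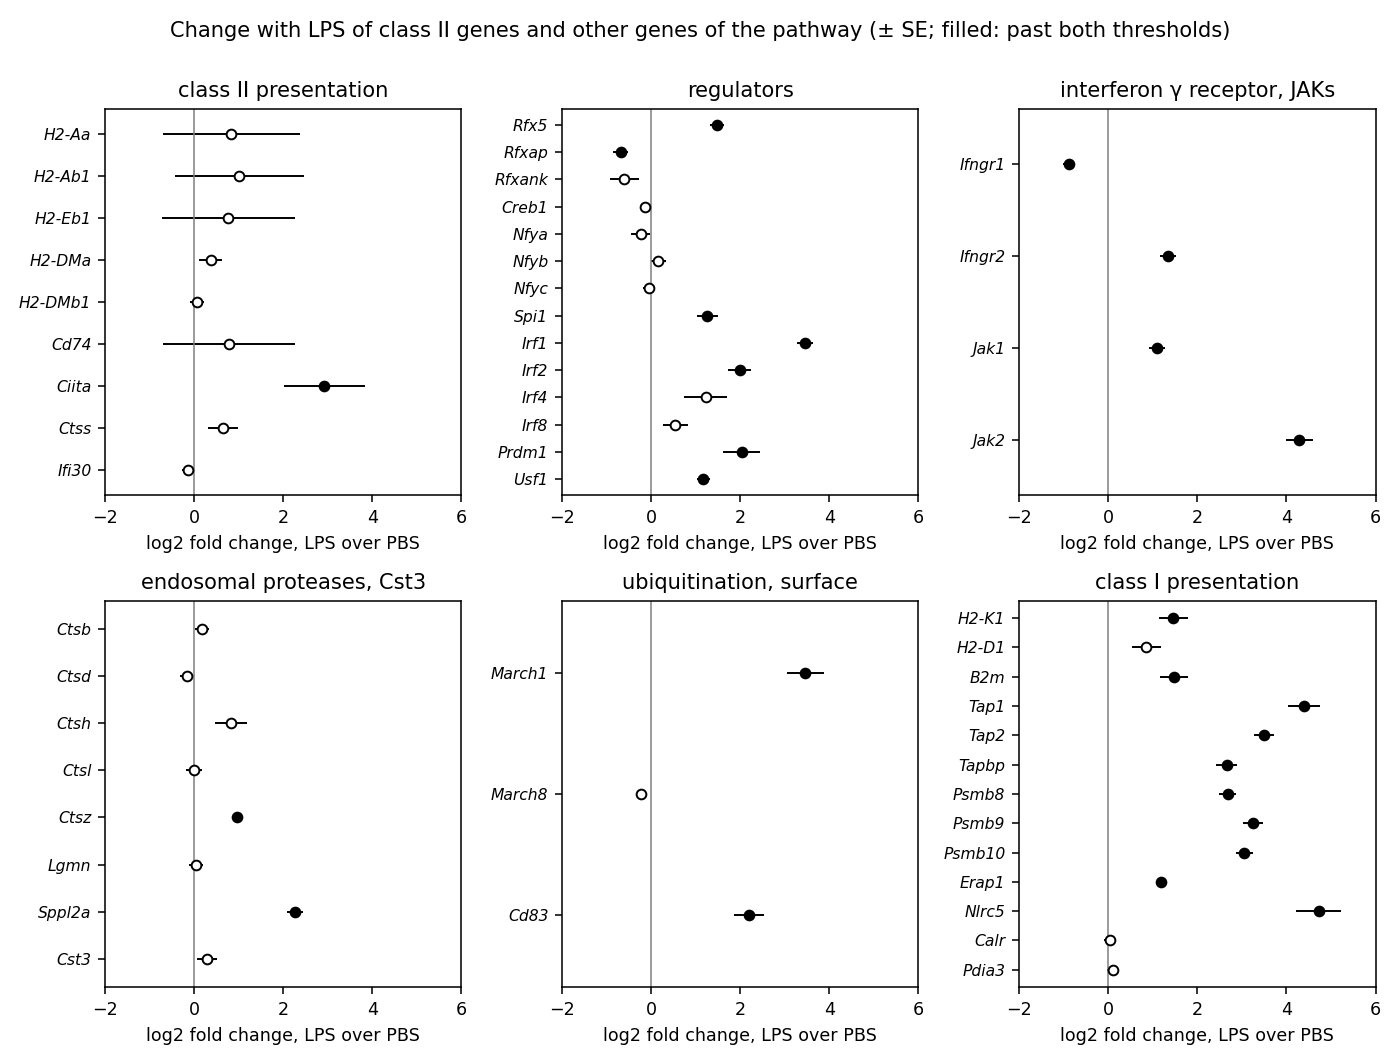
Log2 fold change ± SE of LPS over PBS in the fit over all libraries, 1 point per gene, for the class II members, their regulators, interferon γ receptor and JAK genes, endosomal proteases and their inhibitor Cst3, genes of class II turnover and class I presentation genes. Filled points are past both thresholds, as are 1 of 9 class II members and 10 of 13 class I genes, beside 6 of 9 and 11 of 13 in the fit with library sets as a block. Of all tested genes 38.5% and 44.6% were called in these fits, and 18.3% and 20.5% were called higher.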

How the data were processed

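The authors deposited raw HTSeq counts per Ensembl gene for each of the 12 libraries, made from stranded polyA libraries. Their processing notes name FastQC, Trimmomatic, STAR, HTSeq and DESeq2. Versions, genome build and annotation were not given in the sources used here. Rows that name no gene were left out (reads on no feature were 6.10% to 8.22% of those on or off genes). Of 43626 gene IDs, 42462 were named from GENCODE M21 (GRCm38).

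Counts were fitted with edgeR 4.0.16 (TMM factors, filterByExpr, quasi-likelihood test over all 12 libraries, Benjamini-Hochberg adjustment). CPM uses TMM-scaled library sizes. The SE given for an edgeR fit is the absolute log2 fold change divided by the square root of the test's F value. The tests were also run on simulated counts, with set differences far smaller than those of the chain genes and Cd74. That run does not cover these genes. Alternatives were DESeq2 1.42.0, other size factors, other filters, each library left out and the library set as a block. The labels give no replicate numbers. The sets rest on the running numbers in the titles and on the deviations of the libraries, and replicates numbered in accession order coincide with them. Members and gene lists were chosen with earlier results of these data known, and some list genes are not reported here. The genes named are all members, fixed regulators and any list gene past both thresholds, at most 4 per list and comparison. Depth limits Ciita, at up to 19 reads.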

Additional observations from a re-analysis of the deposited data

How the results depend on the processing

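The labels give no replicate numbers that pair the libraries. The paired analysis used the library set as the block. The fits with whole sets left out, and with the block and total counts together, were chosen after seeing the data. Of the members' log2 fold changes under settings other than leaving out a library, 329 kept their direction and side of the thresholds, 27 passed them newly, 2 no longer did and 31 turned.

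The count of members called in LPS against PBS was 1, and became 3 with total counts, 0 with at least 10 counts in every library, 6 with the library-set block, 6, 4 and 5 with the block without sets 1, 2 and 3, and 4 with the block and total counts. All genes called under these settings numbered 5502, then 8192, 4724 (of 11388 tested), 6378, 5989, 5717, 6043 and 9098. Total counts gave Ctss -0.026, H2-DMa -0.30 and H2-DMb1 -0.59, and with the block -0.025, -0.29 and -0.59. In LPS + 3′SL against 3′SL the members called went from 0 to 4 with the block, to 4, 1 and 3 without sets 1, 2 and 3, and to 1 with the block and total counts, where all genes called numbered 4171, then 5120, 4657, 4286, 4838 and 7422. Total counts gave Ctss -0.0075, H2-DMa -0.025, H2-DMb1 -0.12 and Ifi30 -0.38.

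For 3′SL against PBS, all genes called went from 0 to 88 with DESeq2 and 406 with the block, and Cd74 was at -0.13 with total counts. For LPS + 3′SL against LPS they went from 0 to 1 with DESeq2 size factors, 1 with total counts, 113 with DESeq2, 2 with all genes of at least 1 count, 207 with the block, 1 with the block without set 1, 149 without set 3, 371 with the block without set 3 and 218 with the block and total counts. Members called there went from 0 to 1 with the block without set 3. Cd74 was at -0.12 with the block, -0.065 and -0.0063 with the block without sets 1 and 2, -0.31 without set 3, -0.30 with the block without set 3 and -0.043 with the block and total counts. H2-Aa was at -0.22, -0.032, -0.26, -0.37, -0.45 and -0.16 in the same order. H2-DMa was at -0.0034 and H2-Eb1 at -0.0099 with the block without set 2, and H2-Eb1 at -0.018 without set 3 and -0.085 with the block without set 3. The interaction was called for 44 genes with DESeq2 and 222 with the block, where Cd74 was at -0.15. Total counts gave Ctss 0.019, H2-Ab1 0.14 and H2-Eb1 0.16. The cause of these changes was not tested.

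Leaving out 1 library at a time moved the chain genes most. These fits had no block, so the sets were then unequal between the conditions. The ranges therefore do not describe the change within sets. In LPS against PBS the log2 change ran from -0.90 to 3.08 for Cd74, -1.08 to 2.90 for H2-Aa, -0.23 to 3.32 for H2-Ab1, -0.95 to 3.06 for H2-Eb1 and -0.033 to 0.19 for H2-DMb1, with 0 to 1 members called. In LPS + 3′SL against 3′SL it ran from -1.23 to 3.19 for Cd74, -1.75 to 3.17 for H2-Aa, -0.92 to 3.64 for H2-Ab1 and -1.19 to 3.09 for H2-Eb1, with 0 to 1 members called. For 3′SL against PBS it ran from -2.33 to 2.32 for Cd74, -0.32 to 0.21 for Ctss, -2.38 to 2.35 for H2-Aa, -2.83 to 2.20 for H2-Ab1, -0.34 to 0.080 for H2-DMa and -2.20 to 2.52 for H2-Eb1. For LPS + 3′SL against LPS it ran from -1.99 to 1.82 for Cd74, -0.54 to 0.15 for Ctss, -2.30 to 1.94 for H2-Aa, -2.04 to 1.1 for H2-Ab1, -0.18 to 0.24 for H2-DMa, -1.74 to 1.90 for H2-Eb1 and -0.050 to 0.090 for Ifi30, with 0 to 8 genes called. For the interaction it ran from -2.18 to 2.46 for Cd74, -0.50 to 0.19 for Ctss, -2.58 to 2.38 for H2-Aa, -2.35 to 2.67 for H2-Ab1, -0.12 to 0.37 for H2-DMa and -2.34 to 2.38 for H2-Eb1. Depth limits Ciita, whose PBS libraries held 1 to 5 reads.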
